A study of Olea europaea with 12 samples.

Results

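The 4 genes described here encode proteins of the TIFY family in olive (Olea europaea), which in other plants hold back the response to the hormone jasmonate. They are LOC111404294 and LOC111366098, both named TIFY 10A, LOC111366878, named TIFY 10B, and LOC111402233, named TIFY 5A. They were picked by gene ID from the 28 TIFY genes among the 51008 genes of the deposited table, with their values in all 12 libraries in view. Their levels and differences are therefore a description, and no test is given for them. All 4 passed the filter on low values, which asked for 3 or more libraries with 1 FPKM or higher (fragments per kilobase of transcript, scaled to the mapped fragments of the library), as did 13 of the other 24 TIFY genes. The lowest value of any of the 4 in any library was 2.44 FPKM.

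RNA was taken from the fruit mesocarp, the oil-bearing flesh, of field-grown trees of the cultivar Koroneiki. Ripening fruits were picked at 4 ages, counted in weeks after flowering (WAF), which were 17, 21, 26 and 30, with 3 libraries per age, lettered A, B and C. The library names carry Sep, Oct, Nov or Dec, a different one for each age, so fruit age and the month or season of picking cannot be told apart. The labels do not tie the letters to separate trees, so the spread between libraries of an age may be partly technical, and p-values measure that spread alone.

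Jasmonate is made from linolenic acid and becomes active when it is joined to isoleucine. In Arabidopsis the conjugate binds the F-box receptor COI1 together with a TIFY protein of the JAZ type, which is then degraded, and MYC factors that the JAZ protein had held back, through the adaptor NINJA and the corepressor TOPLESS, become active. MYC factors also switch on JAZ genes, so JAZ transcripts are widely used as a readout of the pathway. In Arabidopsis the names TIFY 10A, TIFY 10B and TIFY 5A belong to JAZ1, JAZ2 and JAZ8, and JAZ8 differs from the other two in lacking the motif by which the receptor captures them and in binding TOPLESS directly. Whether the olive genes act in these ways is not shown by their names.

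All 4 genes carried the annotation of a jasmonate ZIM domain protein in the deposited table. The best protein match that the table lists for TIFY 10B (LOC111366878) is the same sesame TIFY 10A protein that it lists for LOC111366098, so the split between the names 10A and 10B is uncertain for this pair. LOC111402233 was also annotated with the response to wounding and with the regulation of jasmonate signalling. Estimation of FPKM may divide reads between near-identical copies, and whether strand was kept is not given in the sources used here. The values of single copies are uncertain to that extent.

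Transcripts of the most abundant gene, TIFY 10A LOC111404294, stood at 389, 425 and 411 FPKM at 17 WAF in libraries A, B and C. The values were 321, 312.5 and 303 FPKM at 21 WAF and 197, 178 and 202 FPKM at 26 WAF. At 30 WAF they were 53.4, 59.6 and 57.3 FPKM. Every library of an age lay below every library of the age before it, so no pair of ages overlapped. Here and for the genes below, the share of all tested genes without such overlap was not counted. In the limma tests given below, 56.1% to 73.9% of all tested genes differed between the 2 ages compared (adjusted p under 0.05). The means were 408 ± 18.0, 312 ± 8.79, 192 ± 12.8 and 56.8 ± 3.11 FPKM (SD, n = 3 each), 7.19-fold lower at 30 than at 17 WAF. On the log2(FPKM + 1) scale the differences between successive ages were -0.39, -0.70 and -1.74 (SE 0.052), so the last of the 3 intervals held the steepest one.

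The other TIFY 10A copy, LOC111366098, had 294, 321 and 331 FPKM at 17 WAF and 166, 165 and 162 FPKM at 21 WAF. It had 148, 130.4 and 155 FPKM at 26 WAF and 84.5, 91.2 and 89.4 FPKM at 30 WAF. The libraries of no pair of ages overlapped here either, but those of 21 and 26 WAF came close, the lowest at 21 WAF being 162 and the highest at 26 WAF 155 FPKM. The means of 315 ± 19.2, 164 ± 2.43, 144.5 ± 12.6 and 88.4 ± 3.44 FPKM gave log2 differences of -0.93, -0.19 and -0.70 (SE 0.059). The mean was 3.57-fold lower at 30 than at 17 WAF. The largest of its 3 log2 differences thus came first, whereas in LOC111404294 the largest came last.

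TIFY 10B (LOC111366878) followed neither copy. Its libraries held 140.5, 158 and 154 FPKM at 17 WAF and 158, 153 and 153 FPKM at 21 WAF. They held 96.7, 92.8 and 107 FPKM at 26 WAF and 138, 146 and 152 FPKM at 30 WAF. All 3 libraries at 26 WAF lay below the other 9, the libraries at 17 WAF overlapped with those of both 21 and 30 WAF, and those at 30 WAF all lay just under those at 21 WAF. The means were 151 ± 9.16, 155 ± 3.07, 99.0 ± 7.49 and 145 ± 7.37 FPKM, with log2 differences of 0.04, -0.64 and 0.55 (SE 0.056) between successive ages and -0.05 from 17 to 30 WAF. The sign of the difference from 17 to 21 WAF turned, to -0.02, when each library was rescaled to TPM, so that all libraries had the same sum. The lower level at 26 WAF was in all 3 libraries of that age.

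TIFY 5A (LOC111402233) was the least abundant of the 4 and ran the other way until 26 WAF. It had 21.8, 21.5 and 19.8 FPKM at 17 WAF and 31.8, 32.6 and 29.9 FPKM at 21 WAF. It reached 59.9, 62.6 and 57.0 FPKM at 26 WAF and had 3.75, 2.44 and 3.40 FPKM at 30 WAF. No 2 ages overlapped, and the 3 libraries at 26 WAF were the highest of the 12 and those at 30 WAF the lowest. Its means of 21.0 ± 1.06, 31.4 ± 1.36, 59.8 ± 2.81 and 3.20 ± 0.678 FPKM were 2.85-fold higher at 26 than at 17 WAF and 18.7-fold lower at 30 than at 26 WAF. The log2 differences were 0.56, 0.91 and -3.87 (SE 0.093), and because of the added 1 they understate the change of a gene this low. The relative spread was widest at 30 WAF, with a coefficient of variation of 21.2%.

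**Figure D1:**
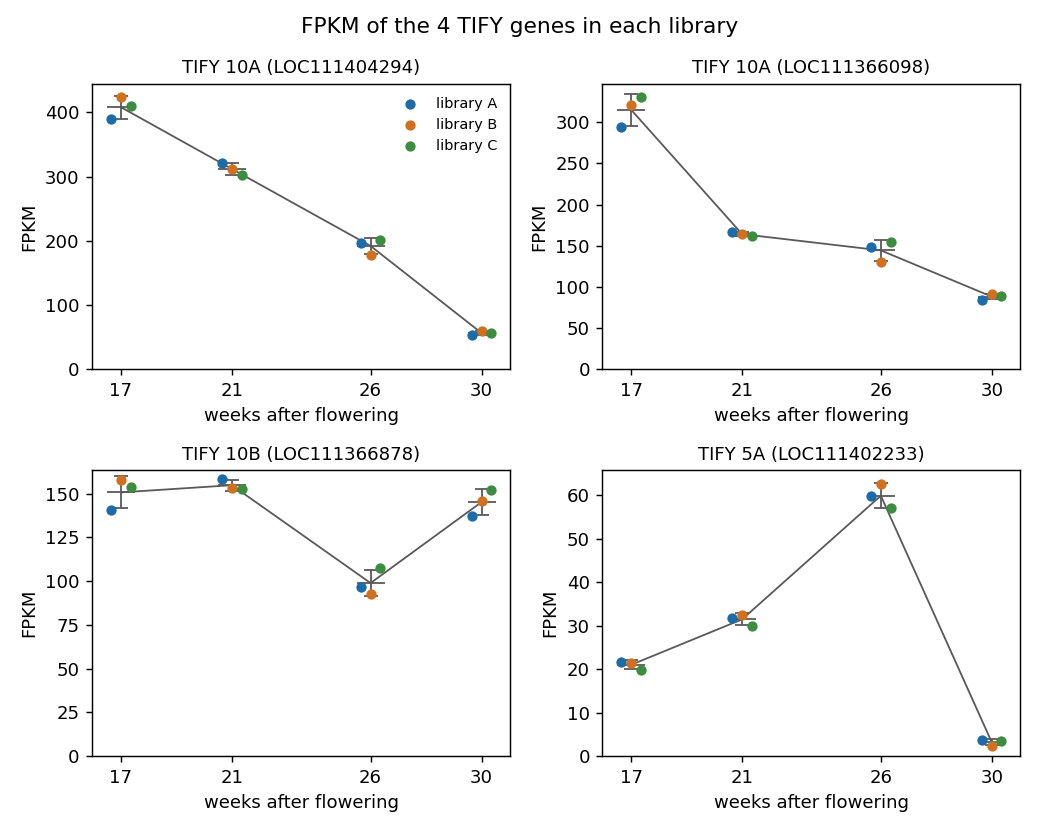
FPKM of the 4 TIFY genes (y axes, each from 0) against fruit age in weeks after flowering (x axes), with 1 coloured point per library and the mean ± SD of 3 libraries in grey. LOC111404294 and LOC111366098 were lower at each later age, TIFY 10B was low at 26 WAF alone, and TIFY 5A was highest at 26 WAF (59.8 FPKM) and lowest at 30 WAF (3.20 FPKM).

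FPKM are scaled to transcript length, so levels can be set side by side between genes. At 17, 21 and 26 WAF the order was LOC111404294, LOC111366098, TIFY 10B and TIFY 5A from highest to lowest. At 30 WAF it was TIFY 10B, LOC111366098, LOC111404294 and TIFY 5A. Neighbours in the order did not overlap at any age, although LOC111366098 and TIFY 10B came near each other at 21 WAF, at 164 and 155 FPKM. LOC111404294 was 1.30, 1.90 and 1.33 times the level of the other TIFY 10A copy at 17, 21 and 26 WAF and 0.642 times that level at 30 WAF.

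Together the 4 genes summed to 895 ± 43.6 FPKM at 17 WAF, 663 ± 14.9 at 21 WAF, 496 ± 29.3 at 26 WAF and 294 ± 12.5 FPKM at 30 WAF. TIFY 10B made up 16.8 ± 0.235% of that sum at 17 WAF and 49.5 ± 0.808% at 30 WAF. LOC111404294 went from 45.6 ± 0.631% to 19.3 ± 0.518% over the same ages, while LOC111366098 stayed between 24.8% and 35.2% in the means of the 4 ages. The share of TIFY 5A was 2.35% at 17 WAF, 12.1% at 26 WAF and 1.09% at 30 WAF. The pool of these transcripts was thus smaller at each later age, and its leading gene at 30 WAF was not the one that led at the other 3 ages. In bulk tissue, fewer cells of a type and less RNA per cell cannot be told apart.

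**Figure D2:**
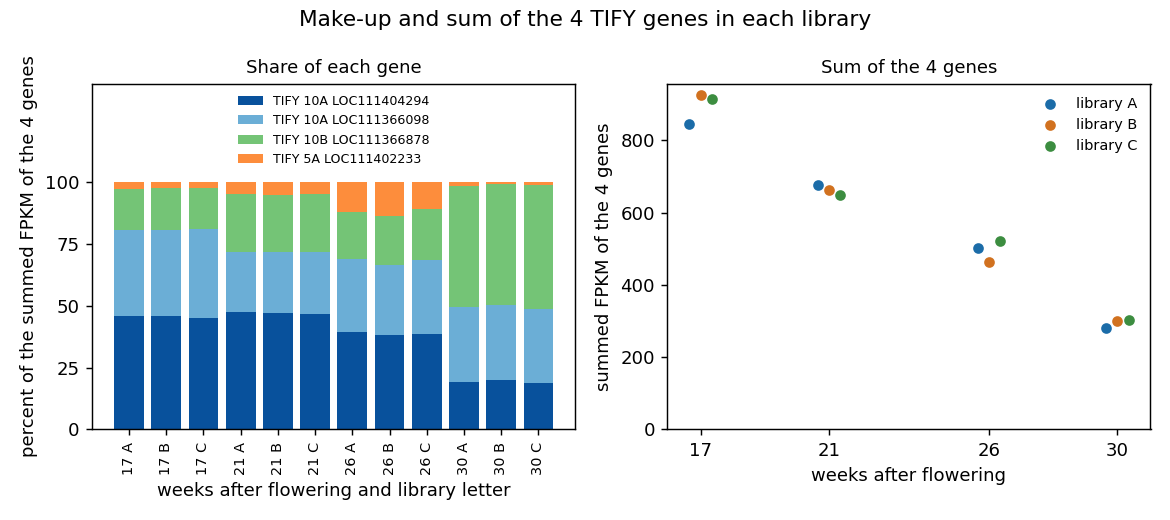
Left, percent of the summed FPKM of the 4 genes that came from each gene (stacked bars, y axis) in each of the 12 libraries (x axis); right, the summed FPKM of the 4 genes (y axis) against weeks after flowering, 1 point per library. TIFY 10B filled 49.5% of the bar on average at 30 WAF, and the mean sum went from 895 to 294 FPKM.

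The 4 genes ranked 1, 2, 3 and 7 among the 28 TIFY genes by mean FPKM over the 12 libraries, and together they held 72.4% of the summed FPKM of the family at 17 WAF and 60.7% to 63.9% at the other ages. The gene of rank 4 was TIFY 10b LOC111409206, at a mean of 110.1 FPKM over the 12 libraries. Of the other 24 family members, 10 were below 1 FPKM in every library and 1 of these was listed at 0 in all 12. The 13 others that passed the filter were tested with limma on log2(FPKM + 1), with Benjamini-Hochberg adjustment over all 26131 tested genes, and rose or fell is written below of genes with an adjusted p under 0.05.

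From 17 to 21 WAF, 7 of these 13 rose and 3 fell, where 22.2% of all tested genes rose and 35.9% fell (58.1% in either direction). From 21 to 26 WAF 2 rose and 6 fell, against 23.2% and 32.9% of all tested genes (56.1%). From 26 to 30 WAF 3 rose and 7 fell, against 42% and 24.3% (66.3%). Between 17 and 30 WAF 1 rose and 6 fell, against 34.9% and 38.9%, and 73.9% of all tested genes were called in either direction. The median log2 change of the 13 was 0.32, -0.17 and -0.28 over the 3 intervals and -0.32 from 17 to 30 WAF, where the medians of all tested genes were -0.07, -0.06, 0.10 and -0.03. Median-of-ratios scaling, which aligns the typical gene between libraries, gave 8 and 1 for the first interval and 1 and 8 for the last. Under it 49.6% of all called genes rose in the first interval in place of 38.2%, and 51.3% in the last in place of 63.4%.

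Among the other TIFY 10 genes, LOC111409206 (TIFY 10b) had 139.5 ± 4.48, 152 ± 6.55, 128 ± 9.60 and 20.9 ± 1.53 FPKM at the 4 ages. It fell from 26 to 30 WAF by 2.56 on the log2 scale (SE 0.059, adjusted p = 7.2e-13). In the first interval it was not called (adjusted p = 0.093, and 0.015 with median-of-ratios scaling). The weaker TIFY 10b gene LOC111372553 rose from 17.3 ± 0.890 to 36.6 ± 3.27 FPKM by 21 WAF and then fell to 14.7 ± 0.627 and 3.70 ± 0.866 FPKM (adjusted p = 9.6e-09 for the last interval). A TIFY 11B gene, LOC111374075, named here after its values were seen, fell from 38.7 ± 0.518 at 17 WAF to 6.93 ± 0.858 FPKM at 30 WAF (log2 change -2.33, adjusted p = 1.1e-12). All 3 were lower at 30 than at 26 WAF in every library, as was LOC111404294, whereas TIFY 10B was higher in every library.

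The other 2 tested TIFY 5A genes had their highest means at 26 WAF, as LOC111402233 did. LOC111412848 had 11.4 ± 1.20, 23.7 ± 1.40, 29.9 ± 1.93 and 1.66 ± 0.325 FPKM and fell from 26 to 30 WAF by 3.54 on the log2 scale (SE 0.092, adjusted p = 2.2e-12), an 18.0-fold lower mean. LOC111397098 rose from 1.53 ± 0.332 to 7.42 ± 0.430 FPKM between 17 and 26 WAF through both intervals, and it was at 1.08 ± 0.601 FPKM at 30 WAF (adjusted p = 2.1e-07 against 26 WAF). Between 17 and 30 WAF LOC111397098 was not called (adjusted p = 0.099), but it was without library B of 30 WAF (0.0029). The 3 TIFY 5A genes were the only ones of the 17 tested TIFY genes whose highest mean was at 26 WAF.

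Of the TIFY 6B genes, whose Arabidopsis namesake is JAZ3, LOC111399062 was at 36.6 ± 0.261, 51.6 ± 2.11, 31.5 ± 0.432 and 43.2 ± 0.864 FPKM, with a rise, a fall and a rise (log2 changes 0.48, -0.69 and 0.45, all called). It was lowest at 26 WAF and higher again at 30 WAF, as was TIFY 10B. LOC111403214 had 38.3 ± 0.728, 35.7 ± 1.46, 34.3 ± 0.387 and 39.3 ± 1.26 FPKM, and its rise from 26 to 30 WAF (adjusted p = 0.00053) was lost with median-of-ratios scaling (0.054). A TIFY 4B gene, LOC111411820, fell from 8.55 ± 0.569 to 5.77 ± 0.208 FPKM by 21 WAF (adjusted p = 3.1e-05) and was not called in the later intervals.

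**Figure D3:**
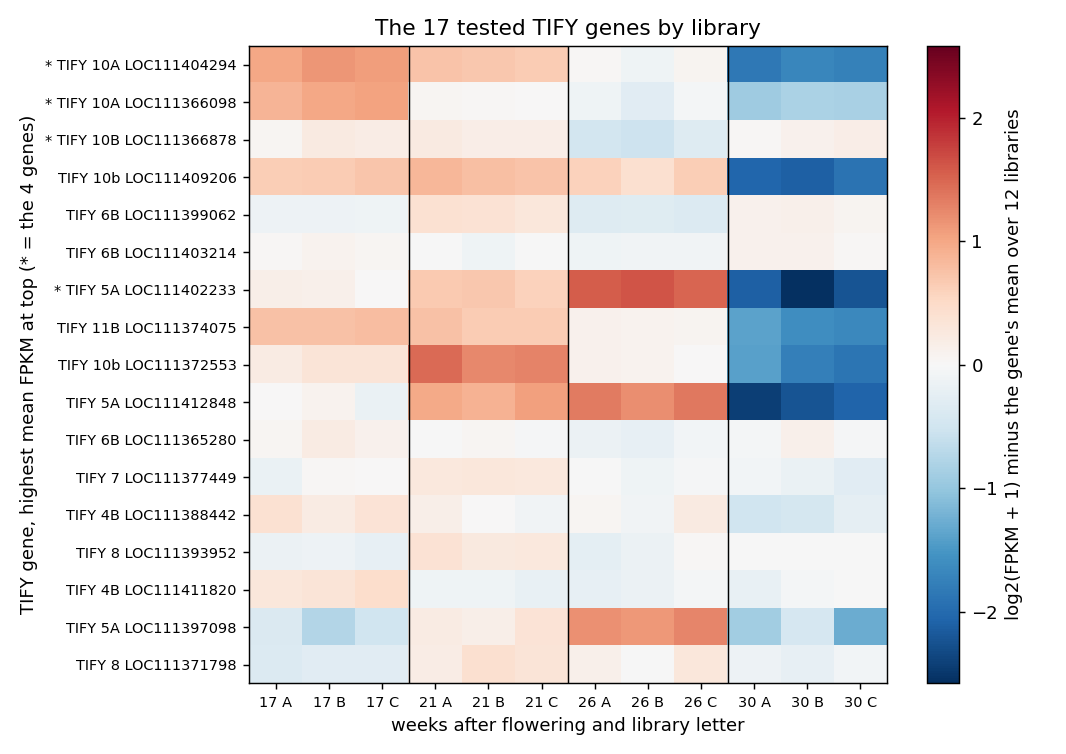
Colours give log2(FPKM + 1) minus the mean of the gene over the 12 libraries for the 17 TIFY genes that passed the filter (rows, most abundant at the top, the 4 genes starred) in each library (columns, by weeks after flowering and letter). The TIFY 5A rows are reddest at 26 WAF and bluest or nearly so at 30 WAF, and the TIFY 6B rows are pale.

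The likeness of other genes to each of the 4 was measured by Pearson's r of log2(FPKM + 1) over the 12 libraries, among 9797 tested and described genes with a mean FPKM of at least 10. The 12 points are 3 libraries at each of 4 ages, so r mainly compares 4 means and is given as a description. Nearest to LOC111404294 were genes for a calcium-binding protein CAST (LOC111381296), a stress-associated A20 and AN1 zinc finger protein (LOC111404090) and a BON1-associated protein (LOC111391572), each with r = 0.999. The calcium-binding protein gene went from 358 ± 15.6 FPKM at 17 WAF to 36.7 ± 1.43 FPKM at 30 WAF. In all, 526 candidates had an r above 0.95 with LOC111404294, so its course was a common one in these fruits.

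For LOC111366098 the nearest genes were a monocopper oxidase of the SKU5 type (LOC111393199, r = 0.995), a MYB1R1 factor (LOC111384481, 0.994) and a pectate lyase (LOC111377512, 0.994), and 251 genes had an r above 0.95. TIFY 10B had 19 such genes, led by a ribonucleoprotein (LOC111369653, r = 0.983), a ribosomal protein L18a (LOC111397115, 0.979) and a GDAP2 homolog (LOC111379152, 0.973). The GDAP2 homolog was at 449 ± 17.2, 514 ± 7.17, 190.2 ± 1.43 and 409 ± 3.53 FPKM at the 4 ages, so its low point at 26 WAF was deeper than that of TIFY 10B. TIFY 5A had 79 such genes, and the nearest were pheophytinase (LOC111384674, r = 0.994), an enzyme of chlorophyll breakdown, an apoptosis-inducing factor homolog (LOC111388757, 0.989) and a stress-related protein (LOC111408076, 0.988). The pheophytinase gene had 110 ± 3.73, 124 ± 2.13, 146 ± 3.55 and 65.1 ± 0.776 FPKM. Between the 4 genes themselves r was 0.907 for the TIFY 10A pair and -0.519 for TIFY 10B with TIFY 5A, and the other pairs lay from 0.119 to 0.732.

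The rest of the pathway was read from lists chosen by words in the gene descriptions. Beside the 13 TIFY genes they held 62 tested genes, and of the 75 in all 31 rose and 30 fell from 17 to 21 WAF (22.2% and 35.9% of all tested genes). From 21 to 26 WAF 17 rose and 35 fell (23.2% and 32.9%), and from 26 to 30 WAF 26 rose and 39 fell (42% and 24.3%). Between 17 and 30 WAF 25 rose and 35 fell, against 34.9% and 38.9% of all tested genes, with a median log2 change of -0.12. In the last interval the balance toward lower levels was opposite to that of all tested genes, but the latter depended on scaling. With median-of-ratios scaling 18 of the 75 rose and 42 fell. All tested genes were then nearly balanced, at 8517 that rose and 8089 that fell. That balance follows largely from the scaling, which aligns the typical gene.

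Among enzymes of jasmonate synthesis, 21 of 28 listed genes were tested, and 8 rose and 10 fell between 17 and 30 WAF, against 34.9% and 38.9% of all tested genes. The most abundant was a 13-lipoxygenase 2-1 gene (LOC111392344), which puts oxygen on linolenic acid at the start of the pathway. It rose from 558 ± 7.96 to 1536 ± 34.2 FPKM by 21 WAF, was at 1448 ± 22.6 FPKM at 26 WAF and fell to 740 ± 14.4 FPKM at 30 WAF, or -0.97 in log2 (SE 0.027, adjusted p = 4.3e-12). A second gene of that name (LOC111393284) went from 91.6 ± 3.94 to 261 ± 18.0, 251 ± 21.6 and 84.5 ± 1.18 FPKM, with the same called rise and fall. These lipoxygenase genes were therefore higher at 21 than at 17 WAF while both TIFY 10A genes were lower. Whether the products of these lipoxygenases went to jasmonate was not tested.

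A 13-lipoxygenase 3-1 gene (LOC111366164) had the largest fall of the synthesis list, from 69.3 ± 0.839 at 26 WAF to 12.6 ± 0.251 FPKM at 30 WAF, or -2.38 in log2 (SE 0.032, adjusted p = 5.7e-15). OPR3 (LOC111399759), the 12-oxophytodienoate reductase of the main route in Arabidopsis, rose from 148 ± 3.0 to 177 ± 7.31 FPKM by 21 WAF and fell to 88.7 ± 1.10 FPKM by 30 WAF. Allene oxide cyclase (LOC111382804), which sets the ring of the molecule, fell from 115 ± 5.06 to 77.7 ± 2.97 FPKM between 17 and 30 WAF (adjusted p = 6.5e-08). Between the same ages OPR11 (LOC111375625) rose from 13.7 ± 0.618 to 52.5 ± 2.82 FPKM and OPR1 (LOC111389541) from 6.07 ± 0.447 to 31.7 ± 1.88 FPKM, both reductases of the class that in Arabidopsis is not the one of the main route. In that class 2 other OPR1 genes, named after their values were seen, fell, LOC111365486 from 18.3 ± 0.614 to 7.28 ± 0.190 FPKM and LOC111365494 from 2.29 ± 0.316 to 0.070 ± 0.066 FPKM (adjusted p = 5e-10 and 1.3e-08). Genes named allene oxide synthase split between 17 and 30 WAF. Allene oxide synthase 3 (LOC111388324) fell from 8.29 ± 0.221 to 1.53 ± 0.295 FPKM. Allene oxide synthase 1 (LOC111408828), described as chloroplastic, rose from 2.40 ± 0.030 to 6.84 ± 0.354 FPKM. Whether both act in jasmonate synthesis is not shown by their names. Of the 21 tested genes, 2 encode oligosaccharyltransferase subunits that the word pattern caught by their name, and without them 6 rose and 10 fell.

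Of the enzymes that convert jasmonate, 12 of 23 listed genes were tested, and 7 rose and 1 fell between 17 and 30 WAF (34.9% and 38.9% of all tested genes). The 1 that fell was a cytochrome P450 94C1 gene (LOC111400668), whose Arabidopsis namesake oxidises the active conjugate. Its level was 157 ± 2.33, 87.9 ± 1.30, 75.9 ± 0.656 and 4.22 ± 0.546 FPKM at the 4 ages, a log2 change of -4.93 from 17 to 30 WAF (SE 0.057, adjusted p = 5.2e-16). Like LOC111404294 it was lower at each later age and fell most in the last interval. A second P450 94C1 gene (LOC111412635) took the opposite course and rose from 1.37 ± 0.106 to 18.2 ± 0.955 FPKM (log2 change 3.02, adjusted p = 1.3e-13). P450 94A2 (LOC111392039) rose from 1.73 ± 0.136 at 26 WAF to 14.1 ± 0.298 FPKM at 30 WAF. It came into the list by its name, which does not show that it acts on jasmonate.

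ILR1-like 6 (LOC111380794), a hydrolase whose Arabidopsis namesake splits amino acid conjugates of jasmonate, rose in every interval from 60.8 ± 1.96 to 116 ± 4.04, 141 ± 5.72 and 173 ± 2.26 FPKM. A jasmonate O-methyltransferase gene (LOC111394434), for the step to methyl jasmonate, had 63.5 ± 1.45, 148 ± 6.46, 128 ± 2.98 and 87.6 ± 3.23 FPKM, with a called rise by 21 WAF and called falls afterwards. Its lesser neighbour in name (LOC111394433) was at 6.80, 14.6, 10.2 and 6.26 FPKM and was not called between 17 and 30 WAF (adjusted p = 0.36).

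Genes for the receptor and the corepressors were tested in 18 of 30 listed cases, of which 5 rose and 12 fell between 17 and 30 WAF (34.9% and 38.9% of all tested genes). The most abundant gene for the receptor COI1 (LOC111405983) was at 17.1 ± 0.590, 17.7 ± 0.529, 14.5 ± 0.846 and 17.4 ± 0.902 FPKM, with a fall to 26 WAF (adjusted p = 0.00045) and a rise after it (0.00068), and it was not called between 17 and 30 WAF (0.63). It was named after its values were seen. A second COI1 gene (LOC111405469) was at 12.6 ± 0.427 and 12.7 ± 0.243 FPKM at 17 and 21 WAF and fell to 8.31 ± 0.248 FPKM at 26 WAF (adjusted p = 3.8e-07). A weaker COI1 gene (LOC111390662) fell from 5.31 ± 0.101 at 26 WAF to 1.05 ± 0.208 FPKM at 30 WAF (adjusted p = 1.2e-08). Another weak one, a COI1 homolog 1b gene (LOC111397089) named after its values were seen, went from 2.08 ± 0.222 at 17 WAF to 4.46 ± 0.122 FPKM at 26 WAF. It was at 3.14 ± 0.052 FPKM at 30 WAF, a rise from 17 WAF (adjusted p = 6.3e-05). Topless-related 3 (LOC111408086) fell in every interval, from 50.2 ± 1.25 to 21.3 ± 0.701 FPKM. Topless-related 2 (LOC111385509) and 4 (LOC111391257) fell less, from 53.1 ± 3.18 to 41.8 ± 1.82 and from 47.2 ± 0.675 to 30.0 ± 0.066 FPKM. Topless-related 1 (LOC111408381) rose in the last interval, from 21.9 ± 1.52 to 32.3 ± 2.07 FPKM, and a second topless-related 4 gene (LOC111405183) fell from 11.5 to 7.05 FPKM in the first. Of the genes named ninja-family, LOC111371304 (protein 4) rose from 3.54 ± 0.156 to 6.30 ± 0.702 FPKM between 17 and 30 WAF. LOC111410023 (AFP3) fell from 10.6 ± 0.348 to 3.98 ± 0.376 FPKM. The most abundant, LOC111410003 (mc410), fell from 29.4 ± 1.69 to 24.4 ± 0.968 FPKM (adjusted p = 0.00056). The AFP3 genes LOC111406170 and LOC111396978 rose (adjusted p = 3.1e-05 and 2.5e-08). These last 3 were named after their values were seen. Whether any of these genes acts as a jasmonate adaptor is not shown by its name.

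Of the bHLH factors that TIFY proteins bind, and of their bHLH antagonists, 11 of 14 listed genes were tested, with 8 rising and 3 falling from 17 to 21 WAF (22.2% and 35.9% of all tested genes) and 2 rising and 8 falling from 26 to 30 WAF (42% and 24.3% of all tested genes, and 0 and 9 of the list with median-of-ratios scaling). MYC2 (LOC111398443), in Arabidopsis the main activator that JAZ proteins hold back, had 75.9 ± 3.26, 106 ± 3.04, 66.2 ± 1.02 and 18.2 ± 0.492 FPKM. It rose and then fell in both later intervals, with a log2 change of -1.81 in the last interval (SE 0.036, adjusted p = 2e-13). MYC4 (LOC111385758) was at 33.5 ± 0.565, 44.6 ± 0.704, 33.9 ± 0.547 and 35.9 ± 0.754 FPKM, and its calls between 17 and 30 WAF (adjusted p = 0.0093) and between 26 and 30 WAF (0.030) were lost with TPM scaling (0.57 and 0.33). MYC2 was thus lowest at 30 WAF, as both TIFY 10A genes were, but highest at 21 WAF, where they were not.

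The antagonists also differed among themselves. A bHLH3 gene (LOC111411855) fell in every interval, from 80.2 ± 2.42 to 62.3 ± 1.03, 51.8 ± 2.52 and 42.1 ± 1.74 FPKM. An ABA-inducible bHLH gene (LOC111386018) fell from 36.4 ± 1.55 to 18.3 ± 0.396 FPKM by 21 WAF and from 18.6 ± 0.796 to 6.35 ± 0.432 FPKM in the last interval (adjusted p = 5.6e-11). A weaker bHLH3 gene (LOC111391416) rose from 7.62 ± 0.499 to 9.70 ± 0.809 FPKM between 17 and 30 WAF (adjusted p = 0.0008), and a minor bHLH13 gene (LOC111411950) was highest at 26 WAF, at 6.48 FPKM against 2.41 FPKM at 17 WAF. The most abundant bHLH13 gene (LOC111409927), named after its values were seen, fell in every interval, from 25.1 ± 0.600 to 5.12 ± 0.079 FPKM between 17 and 30 WAF (adjusted p = 2.4e-14).

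**Figure D4:**
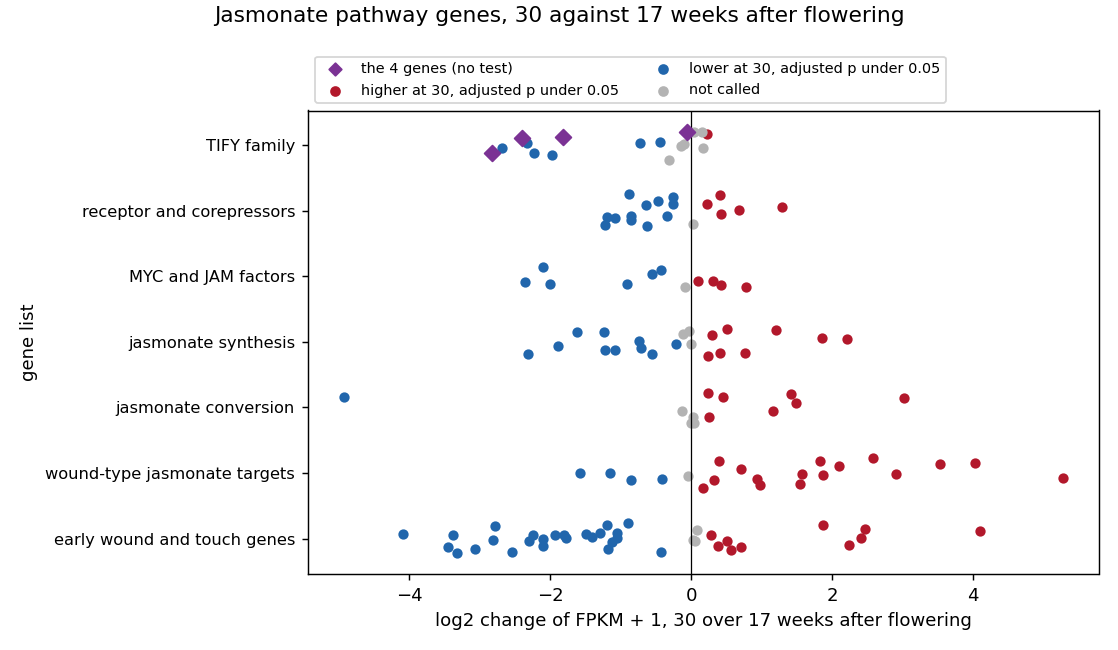
Log2 change of FPKM + 1 from 17 to 30 weeks after flowering (x axis) for each tested gene of 7 lists (rows, with points spread vertically for legibility). Red and blue points are genes that rose or fell in the limma test at an adjusted p under 0.05, grey points were not called, and purple diamonds are the 4 TIFY genes, at -2.83, -2.40, -1.82 and -0.05, which have no test.

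Classes of gene that jasmonate induces in leaves of other plants were mostly higher in the ripest fruits. Of 36 listed inhibitor, storage and wound-induced genes 21 were tested, and 16 rose and 4 fell between 17 and 30 WAF, against 34.9% and 38.9% of all tested genes, with a median log2 change of 0.98. A kunitz trypsin inhibitor (LOC111383654) rose from 4.80 ± 0.252 to 223 ± 4.03 FPKM, by 5.27 on the log2 scale (SE 0.056, adjusted p = 2.2e-16). The proteinase inhibitor PSI-1.2 (LOC111373900) rose from 5.56 ± 0.276 at 26 WAF to 48.4 ± 2.72 FPKM at 30 WAF. Cysteine proteinase inhibitors rose in LOC111397749, from 56.7 ± 3.41 to 345 ± 2.83 FPKM, in LOC111412304, from 10.9 ± 1.49 to 136 ± 4.77 FPKM, and in LOC111381973, from 134 ± 1.69 to 264 ± 2.12 FPKM. The summed level of the list was between 1236 and 1317 FPKM at 17 WAF and between 2020.1 and 2072 FPKM at 30 WAF, the age at which the sum of the 4 TIFY genes was lowest. A link between these sums was not tested.

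Among the 4 that fell were abundant genes of the list. The most abundant cysteine proteinase inhibitor (LOC111411928) fell from 326 ± 15.6 to 244 ± 8.63 FPKM, and LOC111390855 fell from 31.0 ± 1.49 to 9.76 ± 1.11 FPKM. Wound-induced protein 1 (LOC111368523) fell from 308 ± 3.65 to 139 ± 3.58 FPKM between 17 and 30 WAF. The most abundant PSI-1.2 gene (LOC111394394), named after its values were seen, fell from 105 ± 12.9 to 57.7 ± 4.97 FPKM (adjusted p = 4.2e-07). A second wound-induced protein 1 gene (LOC111404976), 1 of the 16 that were higher at 30 than at 17 WAF, rose from 0.80 ± 0.204 to 11.1 ± 0.663 FPKM by 21 WAF and fell afterwards to 1.95 ± 0.459 FPKM.

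In leaves of Arabidopsis TIFY transcripts are known to rise soon after wounding, and neither the hour of picking nor the time from picking to freezing was in the labels used here. Early wound and touch regulators were therefore measured beside them. Of 59 listed genes 38 were tested, and 10 rose and 25 fell between 17 and 30 WAF, against 34.9% and 38.9% of all tested genes, with a median log2 change of -1.18. From 17 to 21 WAF 10 rose and 16 fell, against 22.2% and 35.9%, and the median was -0.08. Their summed FPKM per library was between 2216 and 2312 at 17 WAF and between 1948 and 2091 at 21 WAF. It was between 1036 and 1085 at 26 WAF and between 640 and 653 at 30 WAF, with 2 genes at 0 in all 12 libraries and 21 below 1 FPKM in all 12.

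The zinc finger gene ZAT10 (LOC111389322) had 727 ± 11.9, 539 ± 22.5, 283 ± 12.8 and 168 ± 1.93 FPKM at the 4 ages. WRKY53 (LOC111402874) fell from 158 ± 2.48 to 8.38 ± 0.550 FPKM between 17 and 30 WAF (log2 change -4.09, adjusted p = 1.1e-16), whereas the ERF factor ABR1 (LOC111409375) rose from 2.90 ± 0.469 to 65.3 ± 1.69 FPKM. These 3 were named after their values were seen. The part of these genes' course in that of the TIFY genes was not tested.

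Clock genes were measured because the hour of picking is unknown. Of 11 morning genes 4 rose and 3 fell between 17 and 30 WAF, where 34.9% and 38.9% of all tested genes did, and their summed FPKM lay from 143 to 148, 184 to 186, 134 to 138 and 149 to 153 at the 4 ages. Of 15 tested evening genes, from 19 listed, 5 rose and 6 fell, shares near those of all tested genes, with sums from 255 to 264, 266 to 277, 305 to 307 and 280 to 291 FPKM. The morning sum was lowest and the evening sum highest at 26 WAF, the age at which TIFY 10B was lowest and TIFY 5A highest, and their part in these levels was not tested.

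The libraries were close within an age, with Pearson's r of 0.992 to 0.996 on the log2 scale against 0.888 to 0.972 between ages, and the 12 sums of FPKM lay between 790578 and 845585. Flesh oil synthesis genes were abundant, with sums of 2063 to 3140 FPKM over 18 genes. Of these, 4 stayed below 1 FPKM in all 12 libraries, and none was at 0 in all 12. Of 22 markers of lignified stone and vessels, 20 stayed below 1 FPKM in all 12 libraries and 3 of them at 0, with sums of 12.8 to 20.6 FPKM. Of 23 seed markers, 15 stayed below 1 FPKM and 4 of them at 0. The sum of the seed markers lay between 272 and 315 FPKM at the first 3 ages and between 362 and 379 FPKM at 30 WAF, and its part in the levels of the TIFY genes was not tested.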

How the data were processed

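For every gene the authors deposited 1 FPKM per library, written with 2 decimals. The tools listed, per the submitters' processing notes and with no role for any, are RSEM, Bowtie2 2.2.5, HISAT2 2.0.4 and StringTie 1.0.4. Neither genome build nor strandedness is given in the sources used here. Names of all 4 genes matched the RefSeq genes of assembly O_europaea_v1, which served for names alone. Depth is unknown: among 429 low genes, 12.3 to 19.6% of ratios between libraries lay within 0.1 (log2) of the most frequent, so reads could not be recovered, and no counting interval is given.

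The 26131 of 51008 genes that reached 1 FPKM in 3 or more libraries were fitted with limma 3.58.1 (R 4.3.3, data.table, version 1.17.8) on log2(FPKM + 1) with 1 mean per age over all 12 libraries, empirical Bayes with trend, 2-sided, Benjamini-Hochberg threshold 0.05. The fit was also run on simulated, normally distributed values with known changes, drawn with the spread that the fit itself had estimated. That run cannot test the scaling or whether the spread between libraries is partly technical. Data handling used pandas 2.3.3 and numpy 2.4.6. The 4 genes, the lists and the naming rule were chosen with earlier results of these data known. Named per list were the 3 genes with the highest mean and, per comparison, the largest called rise and fall where the higher age averaged 5 FPKM or more. Likeness named the 3 genes with the highest r. Sequences were not used here.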

Additional observations from a re-analysis of the deposited data

How the results depend on the processing

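The values were recomputed with TPM or median-of-ratios scaling, with a pseudocount of 0.1, without a filter or with a stricter one (mean FPKM of 5 or more), with a fit of just the 2 ages compared, with a replicate block, and without each library. Counts of all tested genes and of the 75 other pathway genes stayed within 1.5 times the value given in all but 1 case: with the stricter filter, where fewer genes were tested, 6568 genes fell between 17 and 30 WAF and not 10178. With TPM scaling the log2 difference of LOC111404294 from 17 to 30 WAF was -2.91 and not -2.83, and with a pseudocount of 0.1 that of LOC111402233 was -2.70 and not -2.40. Leaving out single libraries gave -2.86 to -2.78 and -2.50 to -2.27 for these differences. For TIFY 10B the difference from 17 to 21 WAF lay between -0.01 and 0.08 when single libraries were left out.

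Median-of-ratios scaling moved the share of called genes that were higher from 38.2 to 49.6% for 21 against 17 WAF and from 63.4 to 51.3% for 30 against 26 WAF, and 18 rose and 42 fell among the 75 pathway genes in the latter comparison. With the sample letter as a replicate block, 25 of the pathway genes rose and 35 fell between 17 and 30 WAF, the same counts as without it. No pairing by letter was seen: the deviations of same-letter libraries correlated at -0.086 to 0.074, and those of different letters at -0.149 to 0.150. With 3 libraries per age this check cannot exclude that a letter marks a shared tree. An alternative added after seeing the data left out 2 oligosaccharyltransferase genes, and 23 pathway genes then rose and 35 fell between 17 and 30 WAF. Unknown depth limits the lowest values most, such as TIFY 5A at 30 WAF.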

Other observations

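An uncharacterized gene, LOC111404590, whose best protein match in the deposited table is a sesame TIFY 10B protein, is not named as a TIFY gene and was in none of the lists. It had 27.8 ± 1.05, 18.2 ± 0.372, 13.5 ± 0.205 and 4.24 ± 0.196 FPKM at 17, 21, 26 and 30 WAF (SD, n = 3 each), and fell by 2.46 on the log2 scale between 17 and 30 WAF in the limma test (adjusted p = 1.6e-14). Its libraries did not overlap between ages, and it was picked after its values were seen. Another uncharacterized gene outside the lists, LOC111401208, was annotated as a jasmonate ZIM domain protein, although its listed protein match is itself uncharacterized. It took a different course, with 8.59 to 9.47 FPKM at 17 WAF and 17.35 to 19.58 FPKM at 21 WAF. Its libraries held 15.67 to 17.55 FPKM at 26 WAF and 9.29 to 9.63 FPKM at 30 WAF.

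Genes described as 2-oxoglutarate-dependent dioxygenases of the class that in Arabidopsis includes jasmonate-induced oxygenases were also outside the lists, and these 2 were picked after their values were seen. LOC111404344 was at 15.6 ± 0.340, 11.3 ± 0.440, 4.78 ± 0.255 and 15.4 ± 0.246 FPKM, lowest at 26 WAF, the age at which TIFY 10B was lowest. LOC111403244 rose from 8.91 ± 0.270 at 26 WAF to 27.3 ± 1.09 FPKM at 30 WAF (adjusted p = 2.1e-10 in limma).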
